A study of Drosophila melanogaster with 18 samples.

Results

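The tetraspanin genes of Drosophila melanogaster were followed in wing imaginal discs, larval epithelia from which the wing and thorax of the adult arise. They were taken as every gene whose symbol in the count table begins with Tsp followed by a cytological section number and a letter from A to F, which gave 34 of 17373 genes. Total RNA was counted in 18 libraries from hand-dissected discs of wandering larvae of the last instar raised at 25 °C. All discs carried clones made with ubxflp, a FLP recombinase under Ubx control, on the FRT82B chromosome in a Minute background, in which cells outside the clones grow slowly. Control clones had the plain FRT82B chromosome and were labelled day 5, and wts clones had the wts149 allele of warts, the Hippo pathway kinase that holds back the growth activator Yorkie, and were labelled day 5 or day 9. Each of the 3 groups had 3 numbered replicates, and each replicate had 2 libraries, a and b, whose counts were summed. How much of each disc was mutant is not given in the sources used here, and control discs of day 9 were not analysed here, so the difference of wts day 9 from the controls holds both an age and a genotype difference. The description of the controls reads d5.d6, so even the day 5 groups may differ in age.

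Tetraspanins are small proteins that cross the membrane several times and gather partner proteins, such as integrins and membrane proteases, into patches of membrane. They are found at the cell surface and on endosomes and extracellular vesicles. A subgroup known as TspanC8 tetraspanins, which in flies has the members Tsp86D, Tsp3A and Tsp26A, promotes the maturation of the ADAM protease Kuzbanian, which cuts the receptor Notch. Tsp2A is needed for the smooth septate junctions of the midgut and Malpighian tubules, and Tsp42Ej, also called sunglasses, is a lysosomal protein that takes part in rhodopsin degradation in photoreceptors.

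The replicates held 14201662 to 22263073 counts each. Values are CPM, a gene's counts relative to the library total, scaled with TMM factors and given as mean ± SD with n = 3. What separates replicates is not stated in the labels, and p-values therefore measure only the spread between these samples, which may be technical. Markers of the disc epithelium (nub, vg, ap, rn, hth, Dll, tsh and pnr) summed to 2534 to 2641 CPM in controls, 2469 to 2651 in wts day 5 and 2605 to 2901 in wts day 9. Single markers differed within this sum: rn and tsh rose at both ages and nub at day 9. The marker vg fell at both ages and pnr at day 5, and ap, hth and Dll passed at neither. The wts transcript was 101 ± 5.38 CPM in controls, 202 ± 14.6 in wts day 5 and 269 ± 10.9 in wts day 9; with the lesion of wts149 not given, this level does not check the genotype. Control replicates 2 and 3 stood apart in markers of other tissues. The 9 markers of differentiated muscle summed to 294, 999 and 211 CPM in control replicates 1, 2 and 3, to 93.1 to 173 in wts day 5 and to 32.7 to 52.3 in wts day 9. The 6 salivary gland markers summed to 3.19, 245 and 5285 CPM in the controls and to at most 1.81 CPM in any wts replicate. The 6 tracheal markers summed to 1818 to 2197 CPM in controls, 2716 to 3175 in wts day 5 and 3191 to 3760 in wts day 9. Of these 6 markers, uif and serp rose at both ages and verm at day 9, btl fell at both ages and dys at day 5, and trh passed at neither. The 4 glia markers summed to 244 to 286 CPM in controls, 302 to 377 in wts day 5 and 302 to 311 in wts day 9. Most of this sum was nrv2, at 245, 313 and 280 CPM on average in the 3 groups. Of these markers, nrv2 rose at day 5 and moody at day 9, and repo and gcm were too low to be tested. The gene repo stood at 0.355 to 1.39 CPM in controls and at most 0.414 in any wts replicate. For gcm the values were 0.0889 to 0.749 CPM in controls and at most 0.140 in any wts replicate. The 5 fat body markers summed to 11.4, 120 and 166 CPM in the controls, 4.92 to 25.6 in wts day 5 and 11.7, 204 and 27.4 in wts day 9. The part of any of these tissues in the tetraspanin values was not tested. Myoblast markers, a list of 7, summed to 396 to 412, 249 to 283 and 351 to 398 CPM in the 3 groups.

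Of the 34 tetraspanin genes, 18 were expressed in the disc, taken as a mean of at least 1 CPM in at least 1 group. Of these, 10 averaged 10 CPM or more over the 9 replicates: Tsp42Ee, Tsp42Ef, Tsp39D, Tsp96F, Tsp97E, Tsp66E, Tsp86D, Tsp3A, Tsp26A and Tsp74F. The other 8 expressed genes were Tsp42El, Tsp42Ei, Tsp42Ej, Tsp42Ea, Tsp42Ec, Tsp42Ep, Tsp2A and Tsp68C. Among them, Tsp42Ec and Tsp68C reached 1 CPM in the controls alone, and Tsp42Ec only through control replicate 2, which was high in muscle markers. At a threshold of 2 CPM, 14 genes were expressed. The remaining 16 genes held 0 to 94 counts over all 18 libraries. Of these, Tsp42Eo and Tsp66A were listed at 0 in every library.

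Levels of different genes were compared as CPM per kb of merged exon in the controls. Tsp42Ee stood highest by this measure at 297 ± 41.9 CPM per kb, and its replicates did not overlap those of the next gene, Tsp42Ef, at 43.6 ± 4.20 CPM per kb. Tsp39D (30.0 ± 3.12), Tsp96F (27.3 ± 1.38), Tsp97E (25.6 ± 3.51) and Tsp66E (22.7 ± 2.01) followed, and neighbours among these 4 overlapped. Tsp86D at 18.7 ± 0.105 CPM per kb and Tsp3A at 17.1 ± 0.781 were each separate from their neighbours. Tsp26A (10.4 ± 1.67) and Tsp74F (10.2 ± 1.35) overlapped each other, and Tsp42El stood at 6.38 ± 1.77 CPM per kb. From Tsp42Ej at 1.66 ± 0.305 down to Tsp42Ep at 0.512 ± 0.115 CPM per kb, all neighbours overlapped. Tsp42Ee supplied 43.6 to 51.4% of all CPM assigned to tetraspanin genes in the control replicates, 49.6 to 51.7% in wts day 5 and 49.1 to 50.5% in wts day 9. The summed CPM of all 34 genes was 908 ± 56.0 in controls, 1233 ± 95.8 in wts day 5 and 1322 ± 61.0 in wts day 9, and no control replicate reached the lowest wts replicate.

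The tetraspanin genes were spread unevenly over the genome and over the range of levels. Chromosome arm 2R held 19 of them, 2L held 5, 3L held 4, and 3R and X held 3 each. On 2R, 17 of the genes form a run named after section 42E, together with lbm (late bloomer), a tetraspanin with a name of another form that takes part in synapse formation by motor axons. In this run, 8 of 17 genes were expressed and 2, the neighbours Tsp42Ee and Tsp42Ef, averaged 10 CPM or more. Outside it, 10 of 17 genes were expressed and 8 averaged 10 CPM or more. The 4 genes before Tsp42Ee and the 4 after Tsp42Ef in the run stayed between 0 and 5.12 CPM in every replicate. Per length, the mean level in controls went from 0.303 CPM per kb in Tsp42Ed to 297 in the next gene, Tsp42Ee, and from 43.6 CPM per kb in Tsp42Ef to 0.284 in the next gene, Tsp42Eg.

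**Figure D1:**
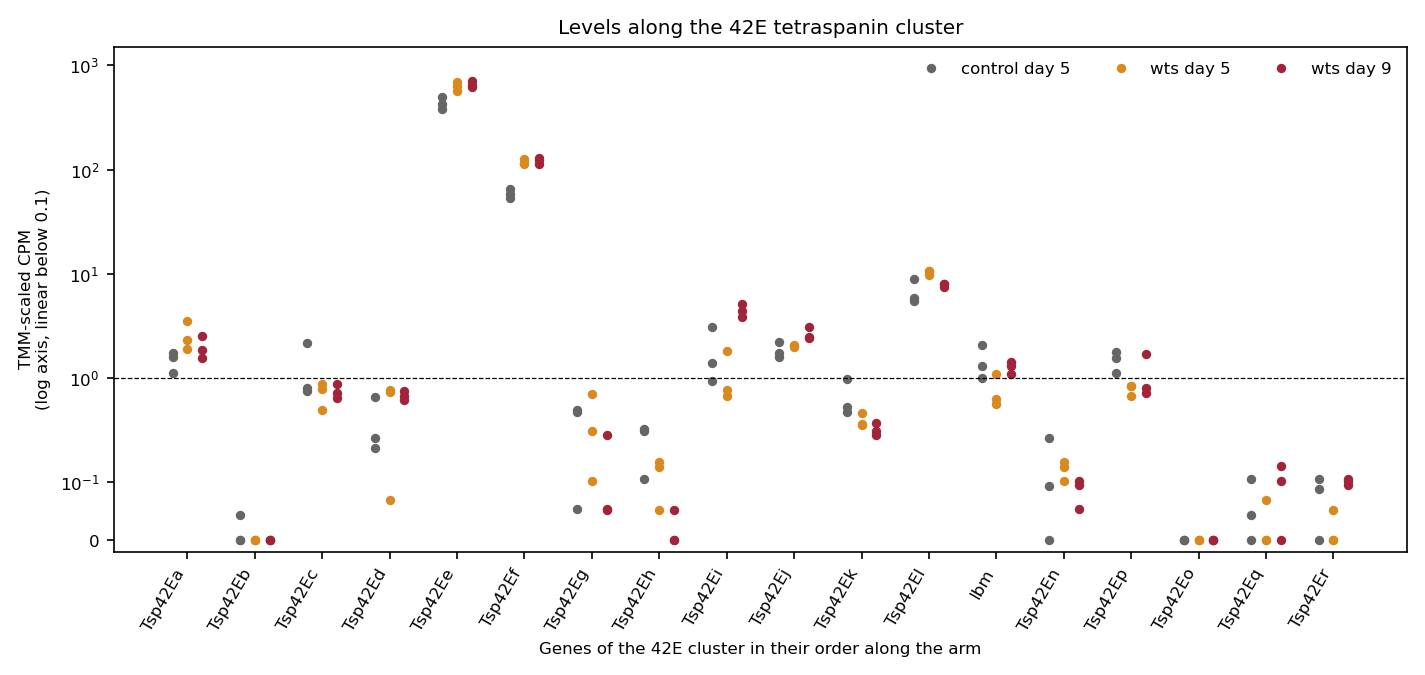
TMM-scaled CPM of each replicate (points, 3 per group) for the 18 genes of the 42E run in their order along the chromosome arm, on an axis that is logarithmic above 0.1 CPM and linear below, with a dashed line at 1 CPM. Tsp42Ee and Tsp42Ef stand above every other gene of the run, and Tsp42El is the only other one to reach 10 CPM in any replicate.

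Of the 34 genes, 19 passed the filter on low counts and were tested, the 18 expressed genes and Tsp42Ed. At day 5, 6 of the 19 rose in wts discs and 1 fell, at a Benjamini-Hochberg adjusted p under 0.05 in edgeR's quasi-likelihood test, against 9.64% of all 8585 genes tested that rose and 8.88% that fell. At day 9 against the day 5 controls, 6 rose and 1 fell, against 15.3% and 14.3% of all genes tested. Among genes that averaged 10 CPM or more, 5 of 10 tetraspanins rose at day 5 and none fell, against 10.9% and 8.5% of all such genes. At day 9, 6 of these 10 rose and none fell, against 17.8% and 14.9%. Groups did not overlap for 9 of the 19 at day 5 and for 10 at day 9, against 37.1% and 44.5% of all genes. Both comparisons use the same control discs, so they are not independent of each other. Tsp42Ef, Tsp42Ee, Tsp39D, Tsp26A and Tsp3A rose at both ages, and Tsp68C fell at both.

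The number of rises at day 5 was 3 in place of 6 when control replicate 1 or wts day 5 replicate 3 was left out, when counts were scaled by library size alone, and when wts day 9 was kept out of the fit. The number of falls at day 9 was 3 in place of 1 without control replicate 1, and 2 without any 1 of the wts day 5 replicates or without wts day 9 replicate 1 or 3. Without control replicate 2, which was high in muscle markers, 4 rose and 1 fell at day 5, and 6 rose and 1 fell at day 9. Without control replicate 3, which was high in salivary gland markers, the numbers were 6 and 1 at day 5 and 7 and 1 at day 9.

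**Figure D2:**
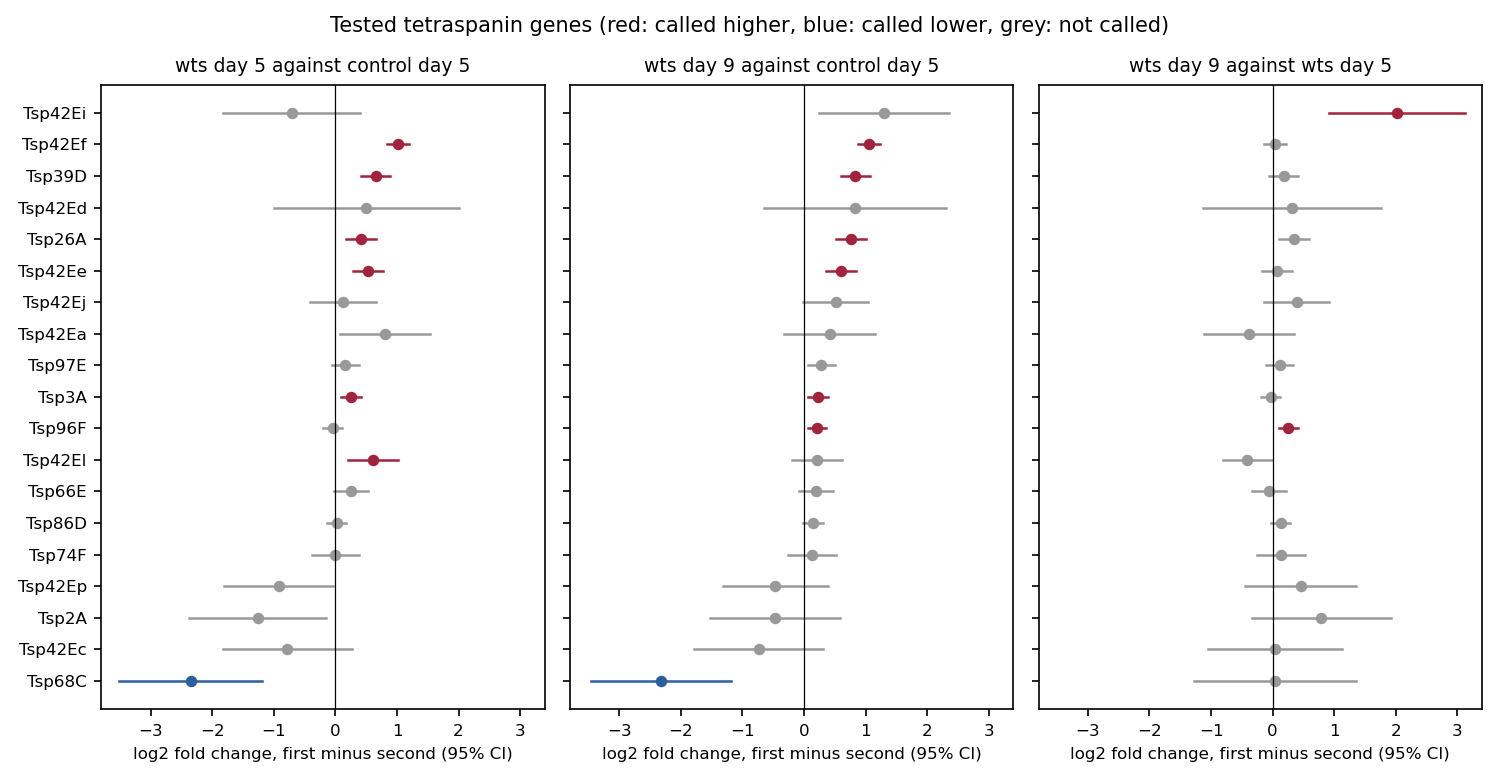
Log2 fold change (points) with its 95% confidence interval (bars) for the 19 tested tetraspanin genes in each comparison, from edgeR's quasi-likelihood fit; red marks genes called higher, blue lower and grey not called. Tsp42Ef, Tsp39D, Tsp26A, Tsp42Ee and Tsp3A lie above 0 in both comparisons with controls, Tsp68C lies below 0 in both, and Tsp42Ei has the highest value between the wts groups.

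Among all tested tetraspanin genes, Tsp42Ef of the 42E run had the smallest adjusted p at both ages. Its control replicates stood at 58.0, 64.8 and 53.5 CPM, its wts day 5 replicates at 117, 114 and 126, and its wts day 9 replicates at 114, 129 and 122. Every wts replicate was above every control replicate, and the 2 wts groups overlapped. The ratio to the controls was 2.02 at day 5 and 2.08 at day 9, log2 fold changes of 1.02 ± 0.08 (SE; adjusted p = 7.71e-05, edgeR) and 1.05 ± 0.08 (adjusted p = 3.08e-05). Between the wts groups the log2 difference was 0.04, with a 95% interval from -0.14 to 0.22.

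Its neighbour Tsp42Ee, the tetraspanin with the highest level per length, rose by less. The controls held 424, 500 and 379 CPM, wts day 5 held 631, 564 and 687, and wts day 9 held 627, 702 and 651. The lowest wts replicate was above the highest control replicate, and the wts groups overlapped. The log2 fold change was 0.53 ± 0.11 at day 5 (adjusted p = 0.0101, edgeR) and 0.60 ± 0.11 at day 9 (adjusted p = 0.00344), and the difference between the wts groups had an interval from -0.17 to 0.32. In bulk discs, more RNA per cell and more cells that make the RNA cannot be told apart, here or for any other gene.

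Tsp42El, further along the run, stood at 5.53, 8.93 and 5.86 CPM in controls, 9.84, 10.6 and 10.7 in wts day 5, and 7.95, 7.97 and 7.53 in wts day 9. It passed the test at day 5 (log2 fold change 0.61 ± 0.18, adjusted p = 0.0428, edgeR), where the groups did not overlap, with the nearest control, replicate 2, at 8.93 CPM. At day 9 the value was 0.20 ± 0.18 (adjusted p = 0.425), and the groups overlapped. The day 5 call was lost when any 1 of the 9 replicates other than control replicate 2 was left out, in 8 fits, at adjusted p from 0.0532 to 0.126. It was also lost with library size alone (adjusted p = 0.0508), the a or b libraries alone (0.0558 and 0.107) and only the groups compared (0.0853). Without control replicate 2 the day 9 value passed too (adjusted p = 0.0383).

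Tsp42Ei had another pattern, higher in wts day 9 than in wts day 5. Its replicates held 1.41, 0.933 and 3.09 CPM in controls, 1.81, 0.773 and 0.675 in wts day 5, and 5.12, 4.40 and 3.83 in wts day 9. Every wts day 9 replicate was above all others, while the controls and wts day 5 overlapped. The ratio of wts day 9 to wts day 5 was 4.09 (log2 fold change 2.01 ± 0.49, adjusted p = 0.0362, edgeR), and against controls the value was 1.30 ± 0.47 (adjusted p = 0.0626). The call between the wts groups was lost without control replicate 1, wts day 5 replicate 2 or 3, or any 1 of the wts day 9 replicates, at adjusted p from 0.0512 to 0.136 and log2 fold changes from 1.76 to 2.12, and with the a libraries alone (adjusted p = 0.0541). Against controls it passed without control replicate 3 (1.92, adjusted p = 0.0116) and without wts day 5 replicate 1 (1.31, adjusted p = 0.0487), and also by DESeq2 (adjusted p = 0.0302), limma-voom (0.0175) and with the b libraries alone (0.0394). Exons of CG33914 on the other strand cover 14.0% of its exon bases, and that gene held 10 counts in all.

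Markers of haemocytes, the blood cells of the larva, were also higher in wts day 9 than in wts day 5. Their sum was 18.5, 42.3 and 66.9 CPM in controls, 24.3, 23.5 and 17.8 in wts day 5, and 104, 80.3 and 65.6 in wts day 9, where the lowest value was below the highest control. Of the 6 markers tested, 5 (Hml, Pxn, eater, NimC1 and srp) rose from wts day 5 to wts day 9, against 5.44% of all genes tested. The seventh, NimC4, was at 0 to 0.0533 CPM in every replicate. Against controls, 1 of the 6 fell at day 5 (Pxn, against 8.88% of all genes) and 1 rose at day 9 (Hml, against 15.3%). Of the 7 myoblast markers, 3 (Ama, Mef2 and zfh1) rose between the wts groups and none fell. The part of these cell types in the value of Tsp42Ei was not tested.

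The remaining tested genes of the run were low and passed no test. Tsp42Ea went from 1.49 ± 0.337 CPM in controls to 2.59 ± 0.848 in wts day 5 and 1.98 ± 0.505 in wts day 9, with a log2 difference at day 5 of 0.80 ± 0.33 (adjusted p = 0.116, edgeR). It shares 97 exon bases on the same strand with CG30159, a gene of 17744 counts. Tsp42Ej, the lysosomal gene, stood at 1.59 to 2.24 CPM in controls, 1.97 to 2.07 in wts day 5 and 2.43 to 3.07 in wts day 9. Its wts day 9 replicates were above all others, but the difference to controls did not pass (0.52 ± 0.24, adjusted p = 0.127). Tsp42Ec had 2.18 CPM in control replicate 2 and 0.492 to 0.881 CPM in the other 8 replicates. Tsp42Ep stood at 1.12 to 1.78 CPM in controls and 0.673 to 0.843 in wts day 5, with no overlap (log2 difference -0.92 ± 0.40, adjusted p = 0.132), and its wts day 9 replicates overlapped both. Tsp42Ed was at 0.379, 0.525 and 0.680 CPM on average in the 3 groups, which overlapped. The gene lbm had 0.562 to 2.09 CPM and passed in no comparison (adjusted p = 0.116, 0.695 and 0.257).

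**Figure D3:**
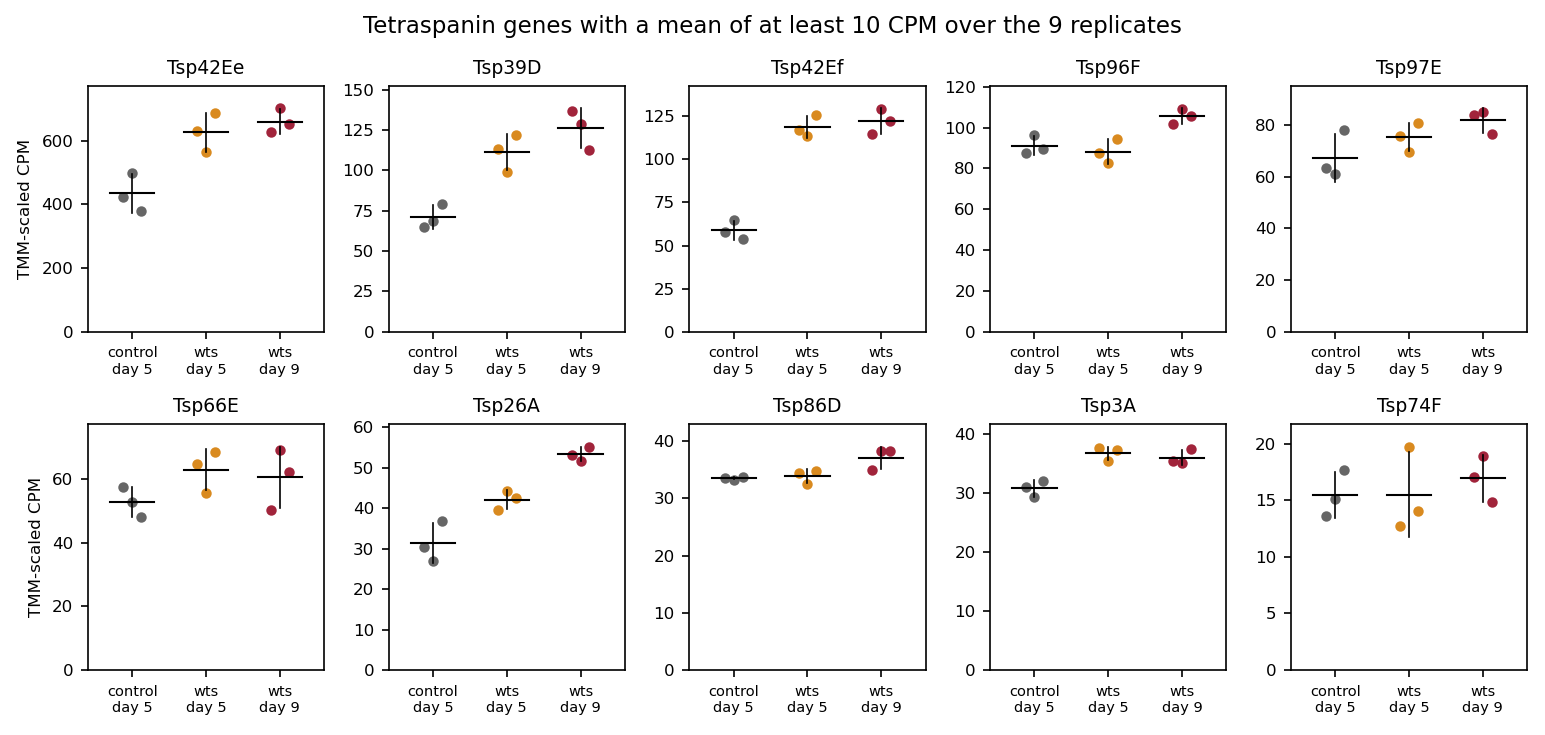
TMM-scaled CPM of each replicate (points), with the mean (horizontal bar) and SD (vertical bar, n = 3) of each group, for the 10 tetraspanin genes that averaged 10 CPM or more, each on its own linear axis from 0. All wts replicates lie above all control replicates for Tsp42Ee, Tsp39D, Tsp42Ef, Tsp26A and Tsp3A, whereas Tsp66E and Tsp74F overlap in all 3 groups.

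The 3 TspanC8 genes, which act on Kuzbanian, were each compared between groups, and their changes were not tested against each other. Tsp26A held 30.5, 26.9 and 36.9 CPM in controls, 39.6, 44.3 and 42.4 in wts day 5, and 53.2, 51.7 and 55.3 in wts day 9. The 3 groups did not overlap and stood in that order. The log2 fold change was 0.42 ± 0.11 at day 5 (adjusted p = 0.0266, edgeR) and 0.77 ± 0.11 at day 9 (adjusted p = 0.00107). From wts day 5 to wts day 9 the value was 0.34 ± 0.11 and did not pass (adjusted p = 0.0783); it passed without control replicate 2 (adjusted p = 0.0421) or 3 (adjusted p = 0.0279), by DESeq2 (adjusted p = 0.0301) and with only the groups compared (adjusted p = 0.0128). The day 5 call was lost without control replicate 1 or 2 or wts day 5 replicate 2 or 3, at adjusted p from 0.0574 to 0.0719, and with library size alone (0.0536), the b libraries alone (0.0764) or only the groups compared (0.0551). The day 9 call was kept under each of the 18 alternatives run.

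Tsp3A rose by a smaller amount, from 31.1, 29.3 and 32.0 CPM in controls to 37.6, 35.5 and 37.3 in wts day 5 and 35.5, 35.1 and 37.4 in wts day 9. Neither wts group overlapped the controls. The log2 fold change was 0.26 ± 0.07 at day 5 (adjusted p = 0.0335, edgeR) and 0.23 ± 0.07 at day 9 (adjusted p = 0.0373). The day 5 call was lost without control replicate 1 or 2 or wts day 5 replicate 1 or 3 (adjusted p from 0.0647 to 0.0903), and the day 9 call without wts day 9 replicate 3 or without control replicate 1 or 2 (adjusted p from 0.0685 to 0.117). With the replicate number as a block the adjusted p was 0.0504 and 0.0525. Both calls were also lost with library size alone, no filter on low counts, the a libraries alone and only the groups compared, at adjusted p up to 0.109 at day 5 and 0.117 at day 9.

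Tsp86D stood at 33.5 ± 0.188 CPM in controls, 33.9 ± 1.17 in wts day 5 and 37.1 ± 1.93 in wts day 9. At day 5 its log2 difference was 0.02, with an interval from -0.14 to 0.18. At day 9 all wts replicates were above the controls, but the difference of 0.15 did not pass (interval from -0.01 to 0.31, adjusted p = 0.138, edgeR).

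The genes of Kuzbanian and Notch cleavage were measured beside them. Of the 10, all tested, none rose and 2 fell at day 5, against 9.64% and 8.88% of all genes tested, with a median log2 difference of -0.08. At day 9, 1 rose and 2 fell, against 15.3% and 14.3%, with a median of 0.04. The median of all genes tested was -0.002 at day 5 and -0.014 at day 9. The protease gene kuz fell at day 5 from 221 ± 13.3 to 182 ± 9.14 CPM (adjusted p = 0.0299, edgeR) and stood at 230 ± 17.8 CPM at day 9. The Notch ligand gene Ser fell at both ages (-0.37 ± 0.11, adjusted p = 0.0388, and -0.38 ± 0.11, adjusted p = 0.0217), and the ligand gene Dl fell at day 9 (-0.28 ± 0.09, adjusted p = 0.0379). Psn, a gene of the gamma-secretase that makes the next cut in Notch, rose at day 9 (0.26 ± 0.06, adjusted p = 0.0105). From wts day 5 to wts day 9, kuz and Psn rose and none of the 10 fell, against 5.44% and 2.9% of all genes tested.

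Tsp39D, outside both groups, rose at both ages. Its replicates held 65.0, 68.4 and 79.1 CPM in controls, 113, 99.2 and 122 in wts day 5, and 137, 129 and 113 in wts day 9. All wts replicates were above all controls, and the wts groups overlapped. The log2 fold change was 0.65 ± 0.10 at day 5 (adjusted p = 0.00311, edgeR) and 0.83 ± 0.10 at day 9 (adjusted p = 0.00051). Between the wts groups it was 0.18, with an interval from -0.05 to 0.41.

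Tsp96F was higher in wts day 9 than in both other groups. It held 87.5, 96.3 and 89.7 CPM in controls, 87.7, 82.6 and 94.6 in wts day 5, and 102, 109 and 106 in wts day 9. Every wts day 9 replicate was above the other 6, which overlapped. The log2 fold change was 0.21 ± 0.07 against controls (adjusted p = 0.0368, edgeR) and 0.26 ± 0.07 against wts day 5 (adjusted p = 0.0419). The first call was lost without control replicate 1 or 3, wts day 5 replicate 1 or wts day 9 replicate 2 or 3 (adjusted p from 0.0561 to 0.119), with the replicate block (adjusted p = 0.0638), and with library size alone, no filter or the b libraries alone (adjusted p up to 0.0895). The second was lost when any replicate other than control replicate 2 was left out (adjusted p from 0.0513 to 0.153), with the replicate block (adjusted p = 0.0774), and with no filter, limma-voom or the b libraries alone (adjusted p up to 0.0833).

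The 4 genes averaging 10 CPM or more that passed against controls at neither age were Tsp86D, Tsp97E, Tsp66E and Tsp74F. Tsp97E, which RefSeq also lists as Tspan31, stood at 67.4 ± 9.25, 75.3 ± 5.46 and 81.8 ± 4.70 CPM in controls, wts day 5 and wts day 9. Its log2 difference was 0.16 ± 0.10 at day 5 and 0.28 ± 0.10 at day 9 (adjusted p = 0.272 and 0.0572, edgeR). Without control replicate 3, at 78.0 CPM the highest control, it passed at both ages (adjusted p = 0.0404 and 0.00699), and at day 9 it also passed by DESeq2 (adjusted p = 0.0347) and with the a libraries alone (adjusted p = 0.04998). Tsp66E stood at 52.9 ± 4.69, 63.0 ± 6.49 and 60.7 ± 9.60 CPM in the same order, with a difference at day 5 of 0.25 ± 0.12 (adjusted p = 0.174). Tsp74F stood at 15.4 ± 2.05, 15.5 ± 3.73 and 16.9 ± 2.04 CPM, with intervals from -0.39 to 0.39 at day 5 and from -0.25 to 0.52 at day 9.

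Tsp68C was the only 1 of the 19 tested tetraspanin genes that fell. It reached 1 CPM and passed the filter on low counts through the controls alone, where it was high. Its entry among the tested genes and its fall are therefore not independent. Its replicates held 1.83, 0.889 and 1.44 CPM in controls, 0.155, 0.281 and 0.364 in wts day 5, and 0.160, 0.466 and 0.192 in wts day 9. No wts replicate reached the lowest control. This rests on 86 counts in the summed controls, 14 in wts day 5 and 16 in wts day 9. The log2 fold change was -2.35 ± 0.52 at day 5 (adjusted p = 0.0137, edgeR) and -2.32 ± 0.51 at day 9 (adjusted p = 0.00826). The day 5 call was lost without control replicate 1 (adjusted p = 0.0514) and without wts day 5 replicate 1 (adjusted p = 0.0609), at values of -2.09 and -2.06. The day 9 call was kept under the 16 alternatives in which the gene passed the filter on low counts (adjusted p from 0.00461 to 0.0455). Of the muscle markers, 7 of 9 fell at day 5 and 9 of 9 at day 9, against 8.88% and 14.3% of all genes tested. The 2 salivary gland markers tested fell at both ages. Of the 7 myoblast markers, 4 fell at day 5, and at day 9 1 fell and 1 rose. Muscle sums in control replicates 1, 2 and 3 were 294, 999 and 211 CPM, and Tsp68C was lowest in replicate 2. The part of these tissues in the value of Tsp68C was not tested.

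Tsp2A, the smooth septate junction gene, held 1.87, 1.95 and 1.01 CPM in controls, 1.19, 0.492 and 0.312 in wts day 5, and 1.49, 1.14 and 0.863 in wts day 9. All 3 groups overlapped. The log2 difference was -1.26 ± 0.50 at day 5 (adjusted p = 0.105, edgeR) and passed without wts day 5 replicate 1 (-2.01, adjusted p = 0.0390). At day 9 it was -0.48 ± 0.47 (adjusted p = 0.476). Its junction partners Ssk and mesh and the other gene of that list, hoka (CG13704 in the table), all fell under the filter, with a sum of 0 to 0.427 CPM in every replicate. Midgut markers, a list that holds Ssk and mesh too, summed to 54.7 CPM in control replicate 3 and to 0 to 0.400 CPM in the other 8 replicates. Of the 54.7 CPM, 53.3 came from Jon65Aiv, while Ssk (0.0533 CPM) and mesh (0.267 CPM) there were no higher than the highest of the other controls.

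**Figure D4:**
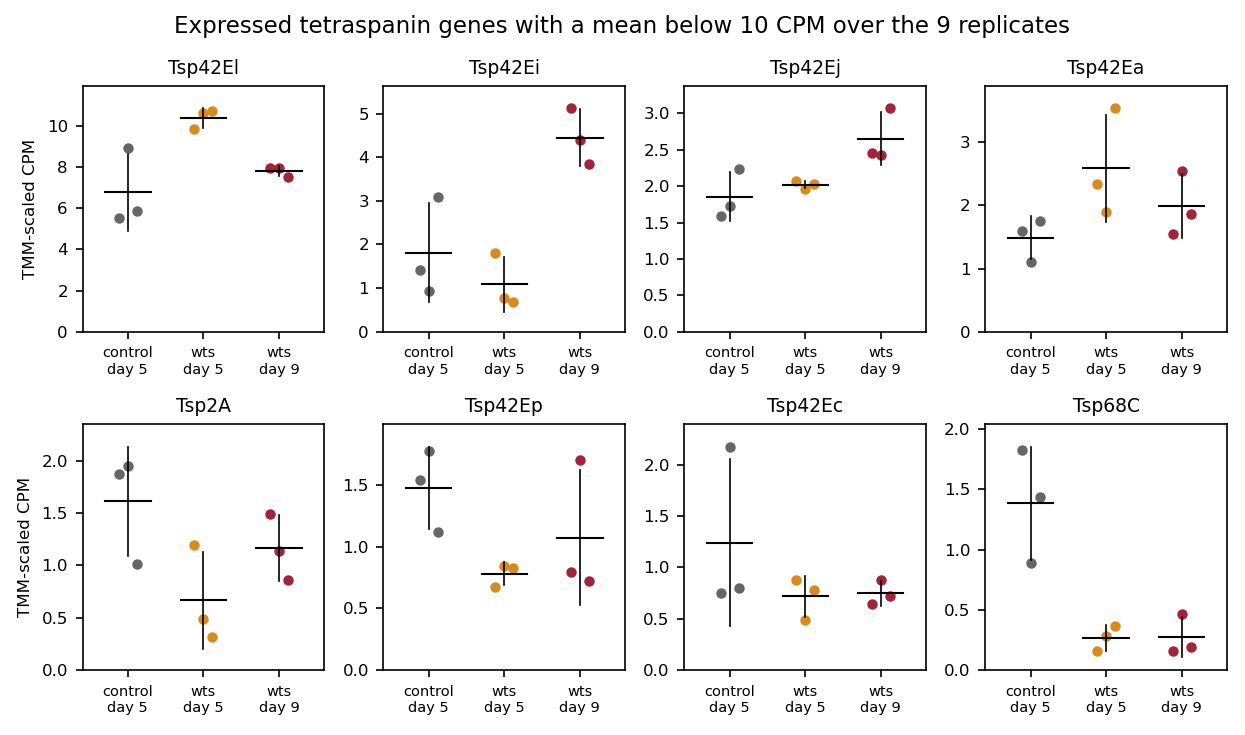
TMM-scaled CPM of each replicate (points), with the mean (horizontal bar) and SD (vertical bar, n = 3, cut at 0) of each group, for the 8 expressed tetraspanin genes with a mean below 10 CPM, each on its own linear axis from 0. Tsp68C is lower in all 6 wts replicates than in the controls, and Tsp42Ei is higher in wts day 9 than in the other groups.

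Of the 15 genes that were not tested, 13 had at least 1 count. Most were too low for a comparison, and intervals and floors on their counts cover counting error only. Tsp29Fb had 51 counts in the summed controls, 10 in wts day 5 and 15 in wts day 9, control over wts ratios of 4.45 (95% exact interval 2.23 to 9.83) and 3.31 (1.83 to 6.33). Of its 51 control counts, 35 came from control replicate 3, the one high in salivary gland markers and in the midgut protease gene Jon65Aiv. Tsp47F had 23, 2 and 0 counts, and 17 of the 23 came from control replicate 2, the one high in muscle markers. Its ratio was 10.03 at day 5 (2.48 to 87.8). With the wts day 9 group set to a floor of 3 counts in total, its ratio at day 9 was 7.46. This value leaves out the counting error of the 23 control counts, so the true ratio may be smaller. The part of these tissues in Tsp29Fb and Tsp47F was not tested.

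Tsp5D had 8, 12 and 12 counts in the control replicates, 11 in the summed wts day 5 replicates and 7 in wts day 9. The control over wts ratio was 2.54 (1.25 to 5.58) at day 5 and 4.45 (1.93 to 11.9) at day 9. Tsp42Ek had 42, 21 and 19 counts in the 3 groups, Tsp42Eg 22, 18 and 8, and Tsp42Eh 16, 6 and 1. In this order, their ratios at day 5 were 1.75 (1.01 to 3.10), 1.07 (0.546 to 2.11) and 2.33 (0.865 to 7.26). At day 9 they were 2.15 (1.22 to 3.92), 2.68 (1.15 to 6.95) and 15.6 (2.42 to 653). Tsp29Fa had 8, 5 and 4 counts and ratios of 1.40 (0.403 to 5.42) and 1.95 (0.521 to 8.83). With every gene of at least 1 count in the fit, 3 of these low genes joined Tsp68C as lower at day 9, Tsp42Eh (adjusted p = 0.0437, edgeR), Tsp47F (adjusted p = 0.0295) and Tsp5D (adjusted p = 0.0374). They held 16, 23 and 32 counts in the summed controls, where they were highest. The share of all genes called lower in that fit is not given here, so this number has no background beside it. Tsp33B, Tsp42A, Tsp42Eb, Tsp42En, Tsp42Eq and Tsp42Er had 1 to 20 counts over all libraries.

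The counts of several genes depend on how reads in shared exons were assigned, and the use of strand is not given in the sources used here. All exons of Tsp66A are shared on the same strand with CG42661 and CG42660, which were also at 0. Tsp42Eo lies inside exons of Tsp42Ep on the other strand, and an antisense RNA covers 53.6% of the exon bases of Tsp29Fa. Tsp42Ej and Tsp42Ek share 107 exon bases. Of the 10 genes that averaged 10 CPM or more, 8 share no exon base with another annotated gene, and for Tsp26A and Tsp66E the shared part was 5.45% and 7.42%.

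Between wts day 5 and wts day 9, 2 of the 19 tested tetraspanin genes rose, Tsp42Ei and Tsp96F, and none fell, against 5.44% of all genes that rose and 2.9% that fell. At an unadjusted p under 0.05 there were 3 higher and 1 lower in edgeR. The share of all genes at this threshold is not given here, and 5.44% and 2.9% hold for the adjusted p only. At an adjusted p under 0.05, DESeq2 and limma-voom also called none lower. Groups did not overlap for 6 of the 19, against 35.5% of all genes. No rise passed without control replicate 1, wts day 5 replicate 2 or 3, or any of the wts day 9 replicates, 1 passed without wts day 5 replicate 1, 3 without control replicate 2 and 2 without control replicate 3.

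Integrins, the adhesion receptors that tetraspanins are known to bind, were measured as a list of 8 genes with their adaptor talin (rhea), of which 7 were tested. At day 5 none rose and scb, an alpha subunit gene, fell (-0.98 ± 0.22, adjusted p = 0.0150, edgeR), against 9.64% and 8.88% of all genes tested, with a median over the list of 0.03. At day 9, 5 rose and none fell, against 15.3% and 14.3%, with a median of 0.38. The beta subunit gene mys rose from 310 ± 10.02 to 457 ± 7.59 CPM (adjusted p = 0.000318), and the alpha subunit genes mew (0.38 ± 0.05, adjusted p = 0.000948) and if (0.40 ± 0.08, adjusted p = 0.00398) rose with it. Between the wts groups, mys and mew rose and none fell, against 5.44% and 2.9%. Of the 10 genes of endosomal sorting and extracellular vesicles, none rose and 1 fell at day 5 (Rab11, -0.26 ± 0.08, adjusted p = 0.0403), against the same shares of all genes. At day 9, 2 rose and none fell, against 15.3% and 14.3% of all genes tested. These were TSG101 (0.27 ± 0.08, adjusted p = 0.0329, edgeR) and shrb (0.18 ± 0.06, adjusted p = 0.0398). The medians over this list were -0.01 at day 5 and 0.14 at day 9. Between the wts groups, 1 rose (TSG101, 0.31 ± 0.08, adjusted p = 0.0417) and none fell, against 5.44% and 2.9%.

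**Figure D5:**
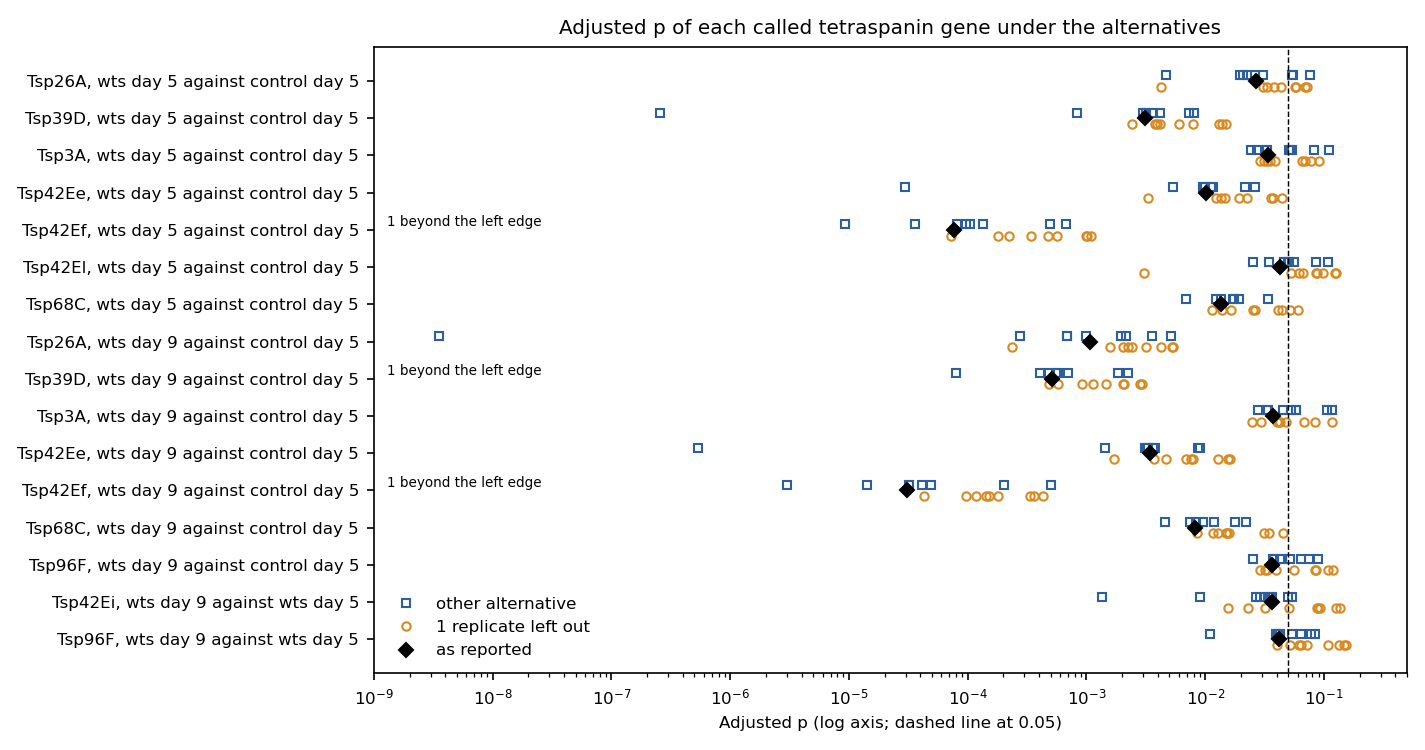
Benjamini-Hochberg adjusted p (logarithmic axis) of each tetraspanin gene called in a comparison, as reported (diamonds), with 1 replicate left out (circles) and under the other alternatives (squares), with a dashed line at 0.05. Tsp42Ef, Tsp42Ee and Tsp39D stay left of the line in both comparisons with controls and so do Tsp26A and Tsp68C at day 9, while Tsp3A, Tsp42El and Tsp96F have points on both sides.

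The calls of Tsp42Ef, Tsp42Ee and Tsp39D at both ages and of Tsp26A at day 9 passed under each of the 18 alternatives run. The adjusted p reached at most 0.00109 for Tsp42Ef, 0.0446 for Tsp42Ee and 0.0149 for Tsp39D in these fits. No called gene changed its direction under any of them.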

How the data were processed

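Per the labels, the authors made read counts per gene with HTSeq; the counts are deposited as whole numbers for 17373 gene symbols in 18 libraries, with no normalization. The aligner, the build, the annotation and strand handling were not given in the sources used here. Libraries held 5611674 to 11193858 counts. Counts of libraries a and b of a replicate differed by about counting noise (chi-square over its degrees of freedom 0.994 to 1.06 over 9 pairs, against 11.1 to 58.9 between replicates), so they were summed and counted once.

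The 3 groups entered 1 fit with edgeR 4.0.16 (filterByExpr, TMM factors from 0.972 to 1.04, quasi-likelihood F-test; R 4.3.3), which tested 8585 genes, and p-values were adjusted over all of them. Alternatives were DESeq2 1.42.0, limma-voom (limma 3.58.1), RLE factors, library size alone, no filter, the replicate block, the a or b libraries alone, only the groups compared, and each replicate left out. The fits were tested on simulated data. Exact intervals for low counts are Clopper-Pearson intervals of the share of counts. Exon lengths, neighbours and overlaps come from an Ensembl annotation whose build may not be the authors', so no positions are printed. Figures were made in Python 3.11.15 with matplotlib 3.10.9.

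The tetraspanin genes and gene lists were chosen with earlier results of these data known. Any tetraspanin gene could be named, and from the other lists up to 3 called genes per comparison by smallest adjusted p, and any gene that bears on a label or a level. Promoter and protein sequences were not analysed here. The table's symbol sun is the ATP synthase epsilon gene, so it was not counted as the tetraspanin of that name. No library was left out of the reported fits.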

Additional observations from a re-analysis of the deposited data

How the results depend on the processing

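For single genes, 926 values under an alternative kept the call as reported, 66 lost it, 15 gained it and none reversed. Rises at day 5 numbered 3 in place of 6 with library size alone and with only the groups compared. Falls numbered 0 in place of 1 at both ages with the a libraries alone and with the b libraries alone, where Tsp68C did not pass the filter on low counts. Falls at day 9 numbered 2 with DESeq2 and 4 with no filter on low counts. The added falls at day 9, here and with a replicate left out, were of tetraspanin genes outside the 19 tested in the reported fit. Rises from wts day 5 to wts day 9 numbered 1 in place of 2 with no filter, limma-voom, the replicate block, the a libraries alone and the b libraries alone. At a threshold of 5 CPM, 11 genes in place of 18 were expressed. The cause of these changes was not tested, except where the filter is named. Leaving out 1 replicate at a time gave 3 to 6 rises and always 1 fall at day 5, 4 to 7 rises and 1 to 3 falls at day 9, 0 to 3 rises and always 0 falls between the wts groups, and 17 to 19 expressed genes. Falls at day 9 numbered 3 without control replicate 1.

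Replicate numbers shared across groups were taken as names, not as a pairing: the correlation of same-numbered deviations ran from -0.234 to 0.2997 over 9 pairs. With the replicate block, 5 genes rose at day 5, 4 at day 9 and 1 between the wts groups. Scaling by library size alone moved the median log2 difference of all genes to -0.05 at day 5 and -0.07 at day 9. Depth limits the genes under 1 CPM, which hold at most 94 counts over all libraries.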
